A study of Schmidtea mediterranea with 24 samples.

Results

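Control planarians of the series came from 2 dsRNA feeding schedules, and the comparison described here sets 5 animals fed 12 times in 9 weeks against 6 animals fed 10 times in 7 weeks. These 11 libraries are all the control libraries among the 24 of the series, chosen by their labels alone. All were asexual Schmidtea mediterranea of strain CIW4, a freshwater flatworm, fed liver with in vitro transcribed dsRNA. The dsRNA was unc-22, named for a Caenorhabditis elegans (nematode) muscle gene, so both groups carry the same control RNAi. Both schedules opened with 6 feedings at 2 per week, followed by 4 or 6 weekly feedings. The other 13 libraries came from 7 animals given nkx1-1 dsRNA on the 12-feeding schedule and 6 given myoD dsRNA on the 10-feeding schedule, and serve here as a second pair of groups that differ by schedule. Each library is labelled as 1 intact animal, although the extraction text speaks of wounds from tail fragments with 5 wounds per replicate. Number of feedings, weeks and cohort go together in these groups and cannot be told apart. P-values measure the spread between these libraries.

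Planarians replace their tissues throughout life from dividing stem cells called neoblasts, which give rise to progenitors of every differentiated cell type. Body size follows food: fed animals grow by adding cells and starved animals shrink, and gut, stem cell and metabolic transcripts are known to respond to a meal. RNAi by feeding uses this, since each dose of dsRNA arrives with liver, so a longer RNAi course is also a longer feeding course.

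Features of the table are contigs of a transcript assembly. The files do not pair contigs with gene names, so no marker of a tissue or cell type was looked up, and values below belong to contigs. Total counts of the 11 controls ran from 13597429 to 17509742. Between 15172 and 15330 contigs reached 1 CPM (counts scaled to a library total of 1000000) in a control library, and the 100 most abundant contigs held 31.9% to 34.5% of its counts. Neither measure nor the total differed between schedules beyond the spread, nor did the distance of an animal from the mean of its group mates. Two-sided exact permutation tests gave p = 0.169 to 0.654, adjusted over 4 measures 0.528 to 0.654. Some alternative settings, given below, brought an unadjusted p of these tests under 0.05, and none did so after adjustment. In whole animals, fewer cells of a type and less RNA per cell cannot be told apart.

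Replicate 3 of the 12-feeding controls lay between the schedules on an axis from the 10-feeding mean (0) to the 12-feeding mean (1). Its position was 0.282, and its group mates lay at 0.923 to 1.22 on axes that include replicate 3. With replicate 3 left out of their axes the mates lay at 0.806 to 1.05. Without 21 contigs near 0 in replicate 3, described below, its own position was 0.38. On principal component 1 of the controls, which held 43.8% of the variance, the 12-feeding animals lay between 4.05 and 15.5 and the 10-feeding animals between −13.1 and −1.17. The groups did not overlap. Replicate 3 had the lowest value of its group, next to replicate 1 at 6.96, and 10-feeding replicate 4 had the highest of its own, next to 10-feeding replicate 3 at −7.16. By distance from the mean of its group mates 10-feeding replicate 4 was also the farthest control, at 0.906 against 0.798 for 12-feeding replicate 3. Results are therefore given with and without this library.

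Controls of the schedules differed at many contigs: 5701 of 16262 tested were called, 35.1%, with 2965 higher (18.2%) and 2736 lower (16.8%) in the 12-feeding controls (edgeR quasi-likelihood test, Benjamini-Hochberg adjusted p under 0.05). Without replicate 3 the count was 6963 of 16394, 42.5%, with 3511 higher (21.4%) and 3452 lower (21.1%). Most differences were small. On the log2 scale, called contigs changed by a median of 0.35, against 0.18 over all contigs tested, and 90% of called changes were under 0.69. At least 2-fold were 132 contigs, 0.812% of those tested, and without replicate 3 there were 224, 1.37%. For 2612 contigs, 16.1% of those tested, every 12-feeding control lay above or below every 10-feeding control. This number was 4948, 30.4%, when replicate 3 was left out of the ranges.

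Calls were more frequent among abundant contigs. Contigs tested were split by their mean level over the 11 controls into 4 classes of 4065 or 4066. In the lowest class, with a median of 1.62 CPM, 14.7% were called, and in the highest, with a median of 83.7 CPM, 52.9% were. The size of the change did not follow this order: the median over all contigs of a class was 0.25 on the log2 scale in the lowest and 0.17 in the highest. The split by schedule accounted for a median of 14.1% of a contig's variance in log2 CPM in the lowest class and 49.5% in the highest. Any split of the 11 controls accounts for some variance, and the share for other splits was not computed. The classes also differ in the counts behind each value, and the part of depth in these shares was not tested.

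Directions also differed between these classes. In the lowest class 218 contigs were higher and 380 lower, and in the highest 1277 were higher and 873 lower. When libraries were scaled by their totals alone, without TMM factors, the lowest class held 182 higher and 455 lower contigs and the highest 1079 and 1065, so falls again outnumbered rises among low contigs while abundant ones were nearly even. In the class below the highest the order turned, from 929 higher and 797 lower to 699 and 964. Over all contigs the split with that scaling was 2389 higher and 3294 lower, so no prevailing direction can be given for the transcriptome. Among the 100 most abundant contigs 59 were called, 31 higher and 28 lower, or 28 and 32 with library totals alone. Called shares were 54.8% of the 1000 most abundant contigs, 52.9% of the highest class and 35.1% of all tested. The contig with the most counts of all took 6.77% to 8.59% of the counts in 12-feeding controls and 8.71% to 9.93% in 10-feeding controls. These are shares of library totals. In TMM-scaled CPM the groups overlapped, so this contig did not pass the naming rule used below. Its log2 fold change was −0.23 ± 0.053 (SE, by edgeR; adjusted p = 0.0032), and −0.26 without replicate 3 of the 12-feeding controls (edgeR adjusted p = 0.000198).

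**Figure D1:**
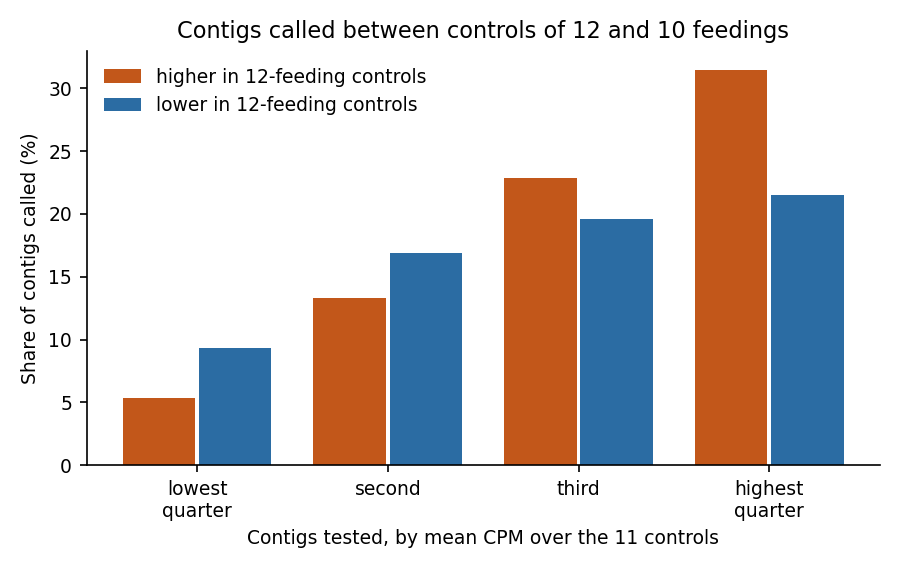
Share of tested contigs called higher (orange) or lower (blue) in 12-feeding than in 10-feeding controls (y axis, percent), in 4 classes of mean CPM over the 11 controls (x axis). Bars rise from 5.36% and 9.35% in the lowest class to 31.4% and 21.5% in the highest, and in the class below it the order of rises and falls turns with library totals alone.

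Contigs of the same assembly component are often variants of one transcript and can share reads. Of 16132 components with a tested contig, 125 had more than 1. In 26 of them at least 2 contigs were called, which moved the same way in 20 and in opposite ways in 6.

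Of contigs that passed the naming rule (called, no overlap between groups, mean of at least 1 CPM), dd_Smed_v4_46086_0_1 rose most on the log2 scale. Its level was 3.82, 4.01, 1.46, 3.75 and 4.12 CPM in 12-feeding replicates 1 to 5, scaled over all 24 libraries. The 10-feeding controls had a lowest value of 0.349, a median of 0.703 and a highest value of 0.98 CPM. Group means were 3.43 ± 1.11 (SD, n = 5) and 0.71 ± 0.221 (SD, n = 6) CPM. Replicate 3 lay between the other animals of its group and the 10-feeding controls. The log2 fold change was 2.29 ± 0.28 (SE; edgeR adjusted p = 3.53e-05), and 2.47 ± 0.19 (SE; edgeR adjusted p = 7.41e-08) without replicate 3. These values rest on 6 to 66 counts per library.

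The rise with the largest gain in CPM was that of dd_Smed_v4_300_0_1, the contig with rank 2 by mean level in the controls. It stood at 33700, 30100, 29000, 28200 and 68700 CPM in 12-feeding replicates 1 to 5, and at 16500 to 27600 CPM, with a median of 21200, in the 10-feeding controls. Group means were 37900 ± 17300 (SD, n = 5) and 22000 ± 4230 (SD, n = 6) CPM. Replicate 5 alone was far above the rest, and the lowest 12-feeding control was close to the highest 10-feeding control. The log2 fold change was 0.79 ± 0.20 (SE; edgeR adjusted p = 0.00746). Without replicate 5 it was 0.46 (edgeR adjusted p = 0.00841), so much of its size rests on that animal. Without replicate 3 it was 0.87 ± 0.21 (SE; edgeR adjusted p = 0.00325).

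The contig dd_Smed_v4_1202_0_1 fell most on the log2 scale. Its level was 2.76, 0.365, 4.24, 2.95 and 0.9 CPM in 12-feeding replicates 1 to 5, against a lowest value of 5.72, a median of 19.3 and a highest value of 48 CPM in the 10-feeding controls. Group means were 2.24 ± 1.59 (SD, n = 5) and 22.8 ± 15.3 (SD, n = 6) CPM. Both groups varied widely, and the naming rule required that they not overlap. The log2 fold change was −3.33 ± 0.53 (SE; edgeR adjusted p = 0.000259), which leaves 0.0995 of the 10-feeding level, and −3.67 ± 0.60 (SE; edgeR adjusted p = 0.00016) without replicate 3.

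The largest loss in CPM under the naming rule was that of dd_Smed_v4_3_0_1, rank 3 by mean level. It measured 12500, 11900, 13500, 10900 and 11900 CPM in 12-feeding replicates 1 to 5 and 14200 to 16600 CPM, with a median of 15200, in the 10-feeding controls. Group means were 12100 ± 955 (SD, n = 5) and 15300 ± 1020 (SD, n = 6) CPM, and the naming rule required that the groups not overlap. Replicate 3 was again the 12-feeding animal nearest to the other schedule. The log2 fold change was −0.33 ± 0.059 (SE; edgeR adjusted p = 0.000574), and −0.38 ± 0.047 (SE; edgeR adjusted p = 1.09e-05) without replicate 3.

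**Figure D2:**
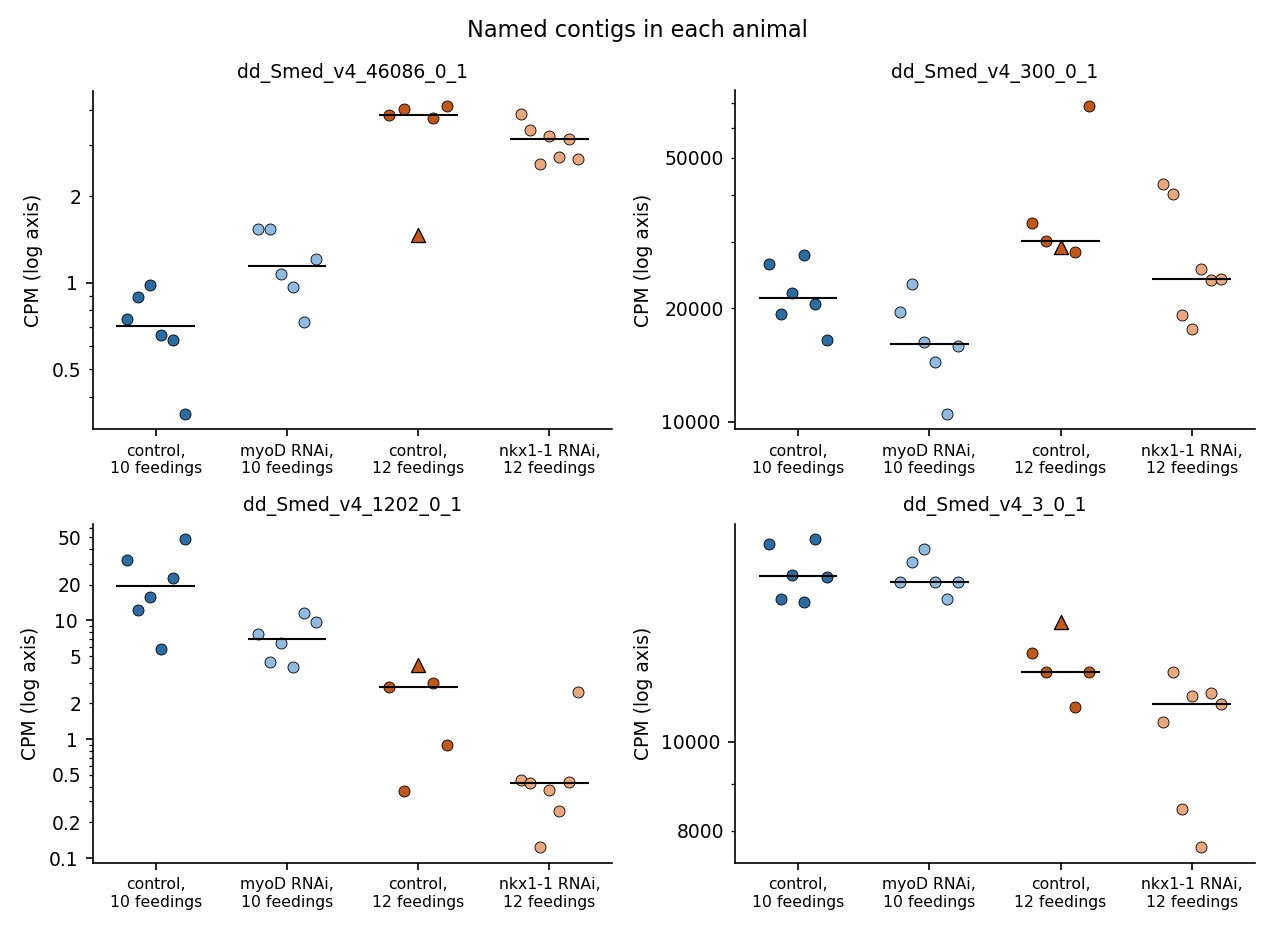
CPM (log axis, scaled over all 24 libraries) of the 4 named contigs in each animal, by group, with a horizontal line at each group median and a triangle for replicate 3 of the 12-feeding controls. Each panel shows 5 and 6 controls that do not overlap between schedules, as the naming rule required, and RNAi animals of the same schedules beside them.

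A sharper pattern lay in contigs that the comparison of all 11 controls had not tested. In 4 of the 5 12-feeding controls, all but replicate 3, 21 contigs had at least 10 counts each while their mean in the 10-feeding controls was below 1 count per library. The rule was set after these values had been seen. None of the 21 passed the low-count filter with 11 libraries, and 20 of them passed it when replicate 3, which lacked them too, was left out. Their counts were 10 to 630 in 12-feeding replicates 1, 2, 4 and 5 and 0 to 4 in the 10-feeding controls, with 0 in 116 of 126 values. In replicate 3 they were 0 to 2, with 0 in 19 of 21. The reverse pattern, at least 10 counts in every 10-feeding control and below a mean of 1 in those 4 animals, was found for 0 contigs. This reverse rule asks for counts in more libraries, and no 10-feeding control was left out of it. The numbers 21 and 0 are therefore not like for like.

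Summed over the 21 contigs, 12-feeding replicates 1, 2, 4 and 5 had 1701, 3836, 2602 and 2410 counts. Replicate 3 had 3 counts among its 15125397, and the 10-feeding controls had 1, 4, 10, 0, 0 and 0. Of the 4 animals with the contigs, each had all 21, as the rule required. No library among the other 7 controls had more than 5 of them with any count. For the 10-feeding controls the rule itself asked for low counts, while replicate 3 was not part of it. The contig with the highest mean level of the 21, dd_Smed_v4_27787_0_1, singled out after its values were seen, had 297, 439, 0, 445 and 398 counts in 12-feeding replicates 1 to 5 and 0 in all 6 10-feeding controls. Its level in the 4 animals was at least 744-fold higher than in 10-feeding controls, with 3 counts over that group taken as the limit that a count of 0 allows. In replicate 3 a count of 0 allows up to 0.199 CPM, against 18.8 to 30.1 CPM in the other 4, and such limits cover counting error only.

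RNAi animals showed the same division by schedule for these contigs, in libraries that had no part in choosing them. Every one of the 21 had a count in all 7 nkx1-1 RNAi animals, from 1 to 7558. In myoD RNAi animals 109 of 126 values were 0, and apart from replicate 1, which reached 67, none was above 2. For 20 of the 21 every nkx1-1 RNAi animal lay above every myoD RNAi animal, where 13.7% of all contigs tested between them did. Only 19 of the 21 were tested there, and that share covers contigs of any control difference. It is therefore not a like background. Leaving out replicate 3 brought 20 of the 21 into the test between controls, where the way they were chosen fixes their direction. What the contigs encode was not looked up, and feedings, weeks and cohort cannot be told apart here either.

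**Figure D3:**
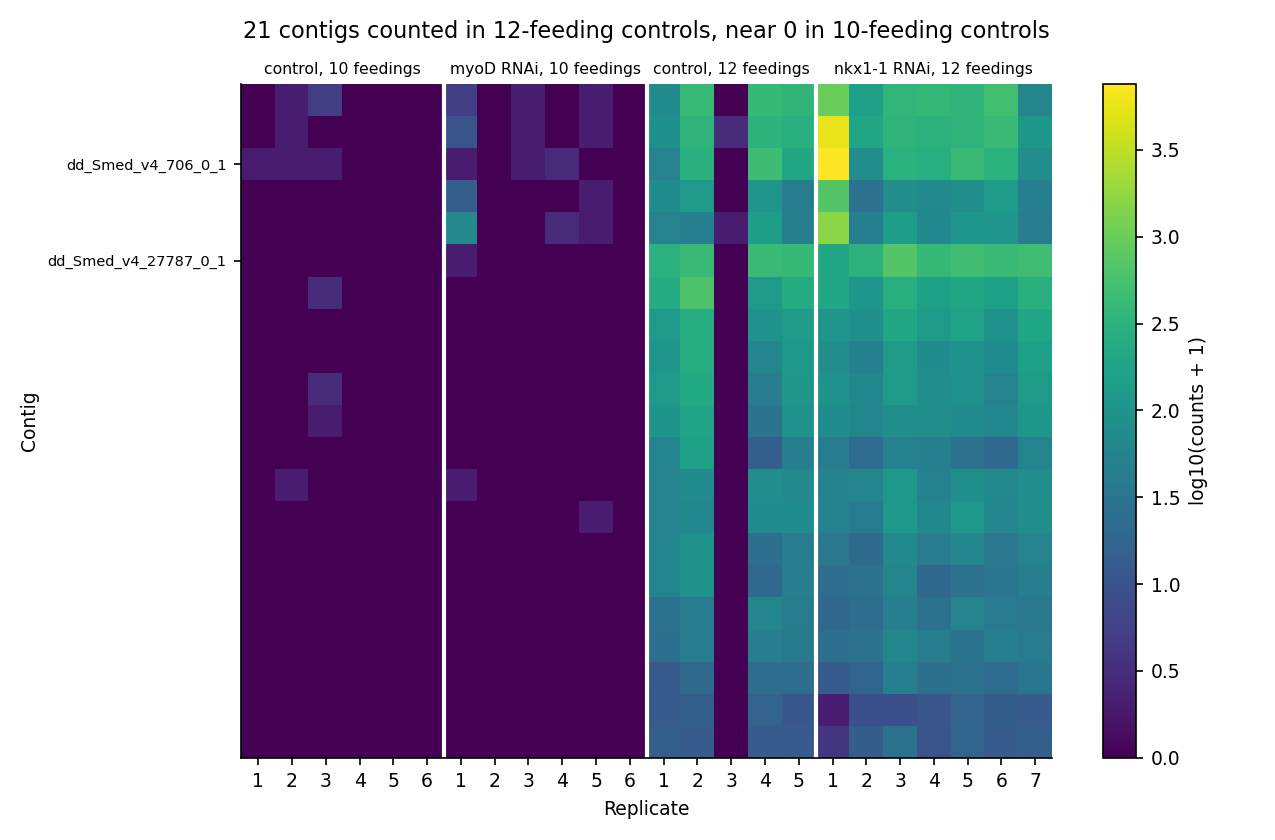
Counts (colour, log10 of counts plus 1) of the 21 contigs (rows) in all 24 animals (columns, by group and replicate). The 4 columns of 12-feeding controls 1, 2, 4 and 5 and the 7 of nkx1-1 RNAi animals are filled, while control replicate 3 resembles the 10-feeding animals, and the 5 uppermost contigs are highest in nkx1-1 RNAi replicate 1. The rule of choice asked for this pattern in the controls other than replicate 3.

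How near each control lay to either schedule was measured by leaving it out, calling contigs between the remaining controls, and fitting its deviation from the 10-feeding mean to the difference of the group means. A position of 0 is then the 10-feeding mean and 1 the 12-feeding mean in log2 CPM. The 10-feeding controls lay between −0.034 and 0.179. Replicates 1, 2, 4 and 5 of the 12-feeding controls lay at 0.923, 1.09, 0.937 and 1.22, or at 0.806 to 1.05 with replicate 3 also left out of the axis. Replicate 3 lay at 0.282 over 6963 contigs, above all 10-feeding controls and nearer to them than to its own group.

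Contigs near 0 in replicate 3 contributed to that value, which was 0.38 without the 21 contigs. It was then 0.365 for contigs higher and 0.395 for contigs lower in 12-feeding animals. For contigs at least 2-fold apart it was 0.47 in the higher and 0.464 in the lower direction. Single contigs varied in this. Of 4858 contigs called without replicate 3 and without overlap between the other 4 animals and the 10-feeding controls, replicate 3 lay inside the 10-feeding range for 1992 (41%), between the ranges for 1655 (34.1%) and inside the 12-feeding range for 824 (17%). For 297 it lay beyond the 10-feeding range and for 90 beyond that of the 12-feeding controls. These contigs were chosen for a gap between the other controls, and no other control was placed in this way. The shares therefore have no background and cannot be read as particular to replicate 3.

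**Figure D4:**
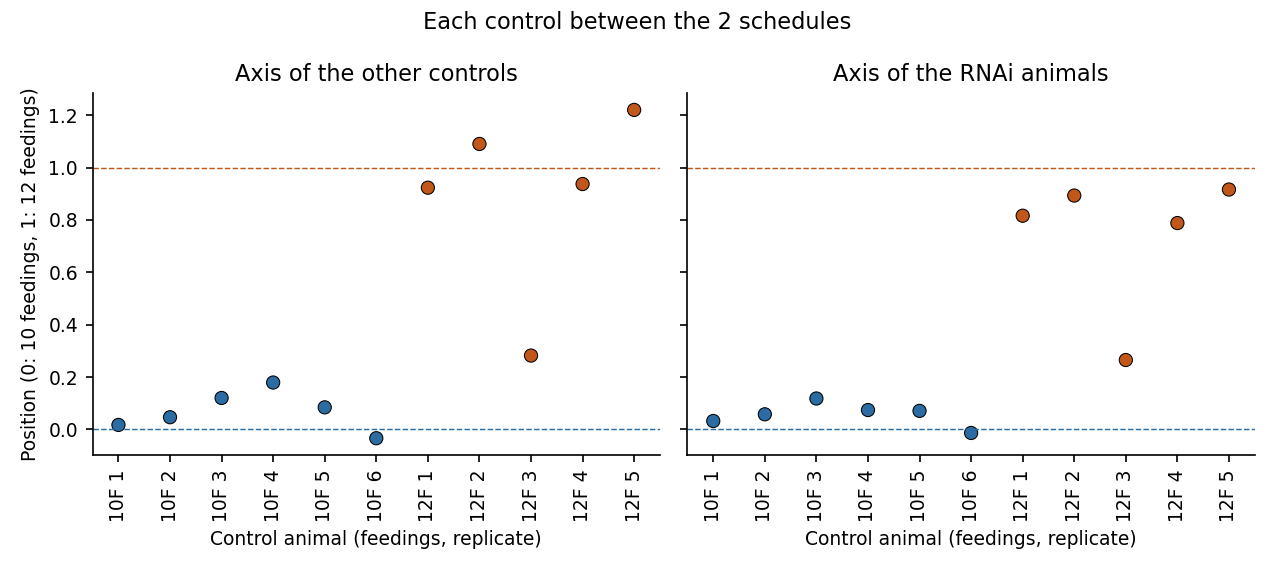
Position of each control (y axis, 0 the mean of 10 feedings and 1 the mean of 12 feedings) on the axis of the other controls (left) and on the axis of the RNAi animals (right). The 12-feeding control replicate 3 lies at 0.282 and 0.265, between the 10-feeding controls and the other 12-feeding controls in both panels. On the left, the axes of all other controls include replicate 3.

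The schedule difference was then measured in RNAi animals, nkx1-1 RNAi with 12 feedings against myoD RNAi with 10, which share no library with the controls but carry the same labels of feedings and weeks. The targeted gene goes with the schedule in this pair. Called were 7803 of 16597 contigs, 47%, with 4052 higher (24.4%) and 3751 lower (22.6%) in the 12-feeding animals (edgeR quasi-likelihood test). The median size was 0.37 on the log2 scale, and 331 contigs, 1.99%, changed at least 2-fold.

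Contigs called between controls moved the same way in RNAi animals in most cases. Of 16158 contigs tested in both, 5689 were called between controls and 7727 (47.8%) between RNAi animals, and 4557 were called in both with the same sign, 80.1% of the former and 59% of the latter. Opposite calls numbered 18, of which 5 were higher and 13 lower in 12-feeding controls. The sign was shared by 96.9% of the contigs called between controls, 80.3% of all contigs and 63.9% of those called in neither. Sizes were alike too: the 5689 contigs had a median size of 0.35 between controls and, counted in the direction seen there, 0.36 between RNAi animals. Across all 16158 contigs Pearson's r between both sets of fold changes was 0.768 and Spearman's rho was 0.763, given as a description, since contigs are not independent. Without replicate 3, 5349 contigs were called in both with the same sign, 77.1% of those called between controls, of which 96.4% shared the sign. Pearson's r was then 0.86, with most of the contigs near 0 in replicate 3 now among those tested, and Spearman's rho was 0.774.

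**Figure D5:**
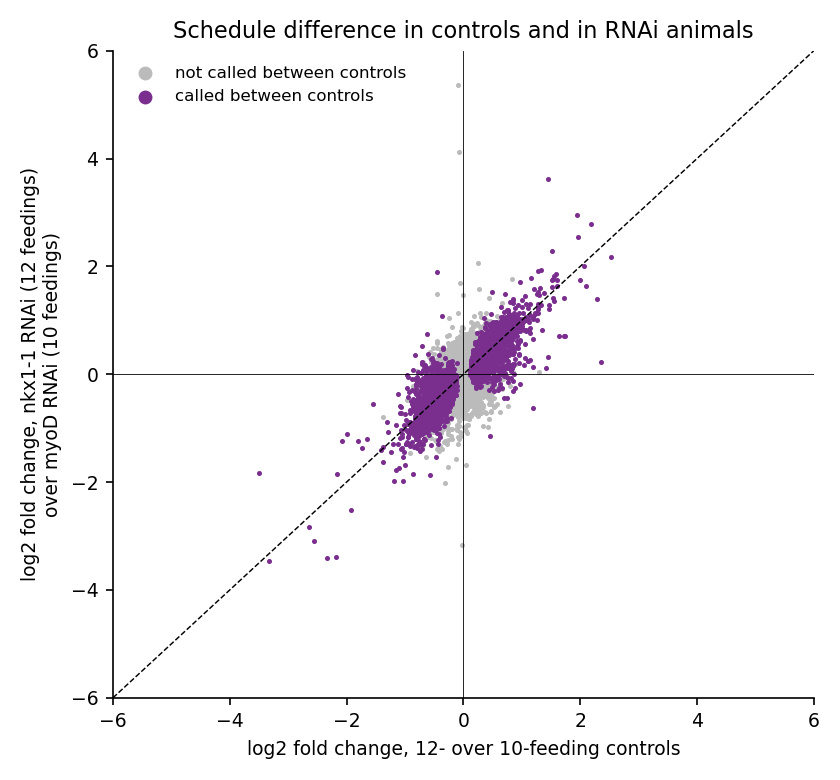
Log2 fold change of each contig tested in both comparisons, 12- over 10-feeding controls (x axis) against nkx1-1 RNAi over myoD RNAi animals (y axis), with contigs called between controls in purple and a dashed line of equal values. Of the called contigs 96.9% have the same sign on both axes. The 21 contigs near 0 in 10-feeding controls are missing because none passed the low-count filter between the controls. Without replicate 3, 20 of them passed it, and 19 passed it between RNAi animals.

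Named contigs followed the schedule in RNAi animals as well. For dd_Smed_v4_46086_0_1 the 7 nkx1-1 RNAi animals had 2.59 to 3.86 CPM and the 6 myoD RNAi animals 0.728 to 1.53 CPM (log2 fold change 1.40 ± 0.17 SE; edgeR adjusted p = 2.53e-06). For dd_Smed_v4_300_0_1 the groups overlapped, at 17600 to 42600 and 10500 to 23200 CPM (0.72 ± 0.21 SE; edgeR adjusted p = 0.00777). The contig dd_Smed_v4_1202_0_1 had 0.123 to 2.5 CPM after 12 feedings and 4.03 to 11.6 CPM after 10 (−3.47 ± 0.42 SE; edgeR adjusted p = 2.58e-06). For dd_Smed_v4_3_0_1 the values were 7670 to 11900 and 14300 to 16200 CPM (−0.56 ± 0.088 SE; edgeR adjusted p = 4.68e-05). Of the 4, only dd_Smed_v4_300_0_1 overlapped between RNAi groups.

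Whether the schedule difference itself differed between controls and RNAi animals was tested on all 24 libraries. It did for 73 of 17159 contigs, 0.425%, and 22 of them, 0.128%, by at least 2-fold. In controls the difference was the more positive for 44 (0.256%) and the more negative for 29 (0.169%). Of the 73, 27 were among the 5701 called between controls, 0.474% of them, and 69 among those called between RNAi animals. The same contrast is the difference of the nkx1-1 and myoD effects, so the targeted genes enter it. None of the 4 named contigs was called (edgeR adjusted p = 0.265, 0.96, 0.965 and 0.408 in the order given), which does not show that their differences were equal. The count moved with the libraries, from 46 without myoD RNAi replicate 3, 48 without 12-feeding control replicate 4 and 48 without 10-feeding control replicate 5 to 132 and 136 without nkx1-1 RNAi replicate 1 or 2, and DESeq2 called 157.

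On the axis of the RNAi animals, with the myoD RNAi mean at 0 and the nkx1-1 RNAi mean at 1 over 7803 contigs, 12-feeding controls 1, 2, 4 and 5 lay at 0.788 to 0.916 and the 10-feeding controls at −0.014 to 0.118. Replicate 3 lay at 0.265, so its place between the groups was also seen with contigs chosen in other animals. Without the 21 contigs it was 0.344, while its group mates lay at 0.75 to 0.89 and the 10-feeding controls at −0.0088 to 0.145. In turn, on the axis of all controls, positions were 0.99 to 1.3 for nkx1-1 RNAi and 0.0565 to 0.228 for myoD RNAi. On the axis of the controls without replicate 3 they were 0.91 to 1.13 and 0.0369 to 0.14. All 7 and all 6 RNAi animals thus lay nearer to the mean of the controls of their own schedule than to the other.

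The contigs on which replicate 3 departed from its group differed in how often RNAi animals followed the schedule. Of all contigs called between controls without replicate 3, 77.1% were called the same way between RNAi animals. That share also covers contigs that overlapped between the other 12-feeding and the 10-feeding controls. The classes below hold only contigs without such overlap, so 77.1% is not a like background for them. Where it lay inside the 10-feeding range, 85.5% of 1983 contigs were called between RNAi animals in the direction seen in the other controls. Where it lay between the ranges the share was 92.7% of 1654, and where it lay inside the 12-feeding range 77.4% of 822. Beyond the 10-feeding range it was 81.4% of 296, and beyond the 12-feeding range 49.4% of 89. The classes also differed in the size of the change between controls without replicate 3. Its median on the log2 scale was 0.368, 0.48, 0.34, 0.299 and 0.283 in the order given, and its part in these shares was not tested. Of all contigs tested both between RNAi animals and between controls without replicate 3, 47.7% were called between RNAi animals in either direction.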

How the data were processed

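Polyadenylated RNA was sequenced from 24 planarian libraries after strand-marking mRNA library preparation, per the labels' protocols. The tools listed, without role or order, are DESeq, SAMtools, Bowtie 1.1.1, cutadapt 1.8 and CASAVA, per the submitters' processing notes. No strand or alignment setting is given in the sources used here. The authors deposited raw whole-number counts per contig for 26563 contigs, 290 of them without a count. Their tables of RNAi against control were not used here.

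The count test was edgeR's (4.0.16, under R 4.3.3; filterByExpr, TMM, glmQLFit and glmQLFTest), with adjusted p under 0.05 over all contigs tested. Controls were fitted on 11 libraries, RNAi animals on 13, and the difference on 24. The SE is the log2 fold change divided by the square root of F. CPM are TMM-scaled, and log2 CPM used a prior count of 2. Principal components and distances used the 500 most variable contigs. Exact permutation tests used scipy 1.17.1. The fits were tested on simulated counts with known changes. Contigs were named by rule: called, no overlap in CPM, mean of at least 1 CPM, and in each direction the largest log2 fold change and the largest difference in CPM. DESeq2 1.42.0, other scalings and filters, a 2-fold minimum, a replicate block and left-out libraries were alternatives. Within control groups, no 2 libraries were alike within sampling noise (chi-square per degree of freedom 4.18 to 33). Contigs have no gene names in these files, so no marker check of the tissue was run. The comparison, lists and tests were chosen with earlier results of these data known.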

Additional observations from a re-analysis of the deposited data

Results flagged for a closer look

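Of 36 sets of values by group, 7 had a highest or lowest animal far from its neighbours. Chance gives about 1 in 20, or 1.8 sets, and the sets are not independent. The set of 21 contigs and some measures were chosen after their values were seen, so 7 cannot be read as an excess. Both sets that singled out replicate 3 of the 12-feeding controls are given above: its position on the axis of the RNAi animals was 0.265, with its group mates at 0.788 to 0.916, and its level of dd_Smed_v4_46086_0_1 was 1.46 CPM, against 3.75 to 4.12. In 12-feeding control replicate 5 the contig dd_Smed_v4_300_0_1 stood at 68700 CPM, with the other controls of its group at 28200 to 33700. With 17375822 counts, 10-feeding control replicate 6 was deeper than its group mates, which had 13597429 to 14981573. In nkx1-1 RNAi replicate 7 dd_Smed_v4_1202_0_1 stood at 2.5 CPM, with the other 6 at 0.123 to 0.454. Summed over the 21 contigs counted in 12-feeding animals, nkx1-1 RNAi replicate 1 had 1330 CPM, against 126 to 202 in the other 6, and myoD RNAi replicate 1 had 6.16 CPM, against 0 to 0.282 in the other 5. The schedule difference differed between controls and RNAi animals for 73 contigs by the test of that difference.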

How the results depend on the processing

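The counts of contigs called between controls, between RNAi animals and with the same sign in both stayed within 1.5 times their main value under every alternative run except a 2-fold minimum, which left 132, 331 and 89. Leaving out 1 library at a time gave 4575 to 6963, 7308 to 7727 and 3830 to 5349. The 73 contigs whose schedule difference differed became 22 with a 2-fold minimum, 157 with DESeq2 and 46 to 136 with 1 library left out, and the cause was not tested. The 21 contigs near 0 in 10-feeding controls numbered 20 to 25 with 1 other control left out, and 0 when replicate 3 had to hold them too. With other rules their number was 29 at a minimum of 5 counts, where 1 contig showed the reverse pattern, 17 at 20 counts and 14 with no count in any 10-feeding control. Of the library measures, none of which was called, the difference in contigs detected (12- minus 10-feeding) turned from −31.2 to 64.0 at 0.5 CPM and 167.3 at 5 counts, and ranged from −47.8 to −16.2 with 1 library left out. The share in the most abundant contigs turned from −0.426 to 0.381 percentage points with 1000 contigs. With 10 contigs it was −1.19 points (exact permutation p = 0.039, adjusted 0.156). Without 10-feeding control replicate 6, total counts differed by 1736990 (exact permutation p = 0.0317, adjusted 0.127). Contigs detected then differed by −47.8 (exact permutation p = 0.0476, adjusted 0.19). The distance turned from 0.0322 to −0.00333 without 10-feeding control replicate 6, with a range up to 0.0988. The labels do not say that a number marks a shared source, and same-numbered controls did not all deviate together (correlations −0.146 to 0.416), so the main tests treat the animals as unpaired. Controls 1, 4 and 5 of 5 and RNAi animals 1, 5 and 6 of 6 matched their own number best, a hint from the data and not from the design. With a replicate block on replicates 1 to 5, 4735 contigs were called between controls, against 4993 for the same libraries without it, and on replicates 1 to 6 of the RNAi animals 7506 against 7698.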

Other observations

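The 21 contigs counted in 12-feeding animals fell into parts by their level in a single RNAi animal, a division made after these values were seen. In nkx1-1 RNAi replicate 1, 5 of them had at least 2 times the CPM of any other nkx1-1 RNAi animal, with 695 to 7558 counts, against 27 to 509 in the other 6. The highest, dd_Smed_v4_706_0_1, singled out after its values were seen, was 21.6 times the next nkx1-1 RNAi animal in CPM. In myoD RNAi replicate 1 the same 5 contigs had 1 to 67 counts, and no other myoD RNAi animal had more than 2. The other 16 did not share this rise, with 1 to 207 counts in nkx1-1 RNAi replicate 1 and 8 to 696 in the other 6. Each of the 16 had at least 1 count in all 7 nkx1-1 RNAi animals and in 12-feeding controls 1, 2, 4 and 5, while the 12 animals of the 10-feeding schedule had 0 to 2 and 12-feeding control replicate 3 had 0 for all 16. The rule of choice asked for this pattern in the controls other than replicate 3.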
